A study of Homo sapiens with 24 samples.

Results

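The early transcriptional response of KM-H2 cells to AEZS-136 was read from the arrays labelled with this line, 6 of the 24 arrays of the series. KM-H2 is an established Hodgkin lymphoma line, and AEZS-136 is described by the study as a dual inhibitor of the PI3K and ERK pathways. There were 3 arrays of KM-H2 cells given 10 µM AEZS-136 for 2 h and 3 arrays of KM-H2 control cells, which the study describes as given DMSO vehicle, also collected after 2 h. The other 18 arrays cover the lines L-428, L-540 and SUP-HD1 under the same pair of conditions. All cells were grown in medium with serum, and no group carried an introduced genetic change. The study placed KM-H2, with L-428, among the lines that resisted death by the compound. At 10 µM and up to 2 h, its blots showed ERK phosphorylation raised in KM-H2 and L-428. PI3K and AKT phosphorylation was reported as inhibited in all lines. KM-H2 is a single line. The labels do not say whether each array had a culture of its own, so a p-value here reflects only how far the arrays of a group differ, possibly for technical reasons. The number of arrays limits the precision.

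Cells that sense a shortage of amino acids, misfolded protein or other stress phosphorylate the translation initiation factor eIF2α, which lowers protein synthesis as a whole while the mRNA of the transcription factor ATF4 is translated more. ATF4 with its partners, among them CHOP (the product of DDIT3) and C/EBP factors, then switches on genes for amino acid uptake and synthesis, for brakes on mTOR and for the phosphatase subunits that reverse eIF2α phosphorylation. When translation stalls, transcripts that are normally destroyed by nonsense-mediated decay, such as the spliced host transcripts of small nucleolar RNAs, can build up. ERK and PI3K signals reach transcription through immediate early genes and FOXO factors. In bulk RNA, fewer cells of a type and less RNA per cell cannot be told apart.

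Signal was read from 24578 probes, and values below are background-corrected, quantile-normalized log2 intensities. Array medians of the KM-H2 signal ran from 96.0 to 127.9, the lowest on control array 1, and 18170 to 19524 probes were detected per KM-H2 array. Profiles of AEZS-136 arrays correlated with each other at 0.9939 to 0.9955 across probes, those of control arrays at 0.9913 to 0.993, and those of the pairs between the groups at 0.9854 to 0.988. Of the Hodgkin line markers, 8 of 9 measured were detected on all 6 arrays, among them IRF4, TRAF1, BATF3 and CCL17, whereas the TNFRSF8 (CD30) probe was detected on 0 of the 6. Of 11 measured B cell markers 7 were detected on all 6 arrays, including CD79A, CD79B and EBF1. MS4A1, POU2AF1 and BANK1 were undetected on every KM-H2 array. KM-H2 cells also gave signal for CD3D, CD3G and CD2 among 6 measured T cell markers and, detected on all 6 arrays, for 5 of 7 measured myeloid markers (CD14, CSF1R, ITGAM, FCGR3A and CD68).

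AEZS-136 changed many transcripts in KM-H2 cells within 2 h, and rises outnumbered falls among the larger changes. A probe was called changed at an adjusted p under 0.05 (limma, Benjamini-Hochberg over all 24578 probes) with an absolute log2 change over 0.4, and "rose" and "fell" are used only of such probes. In KM-H2 cells 2758 probes were called (11.2%), 1590 of them higher (6.47%) and 1168 lower (4.75%) in AEZS-136 cells. Of these, 250 rose and 78 fell by more than 1 on the log2 scale, and 8 rose and 1 fell by more than 2. Over all probes the median change was -0.01, and 31.4% of all probes had groups that did not overlap. The split of calls depended on the scaling: 57.7% of calls were rises with quantile normalization and 83.3% with median scaling. An export order of the arrays was reconstructed from rows of the intensity table whose columns were out of register. The labels give no such order, and cutting it after position 12 into a first and a second set was a choice. Arrays 1 and 3 of each KM-H2 group lie in the first set and array 2 of each in the second. With this set as a block 2858 probes were called, 2088 in the first set alone and 130 in the second alone. Counted with 1 probe per gene, 1732 of 13406 genes were called (12.9%), 955 up (7.12%) and 777 down (5.8%), and this is the background for the gene lists below.

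**Figure D1:**
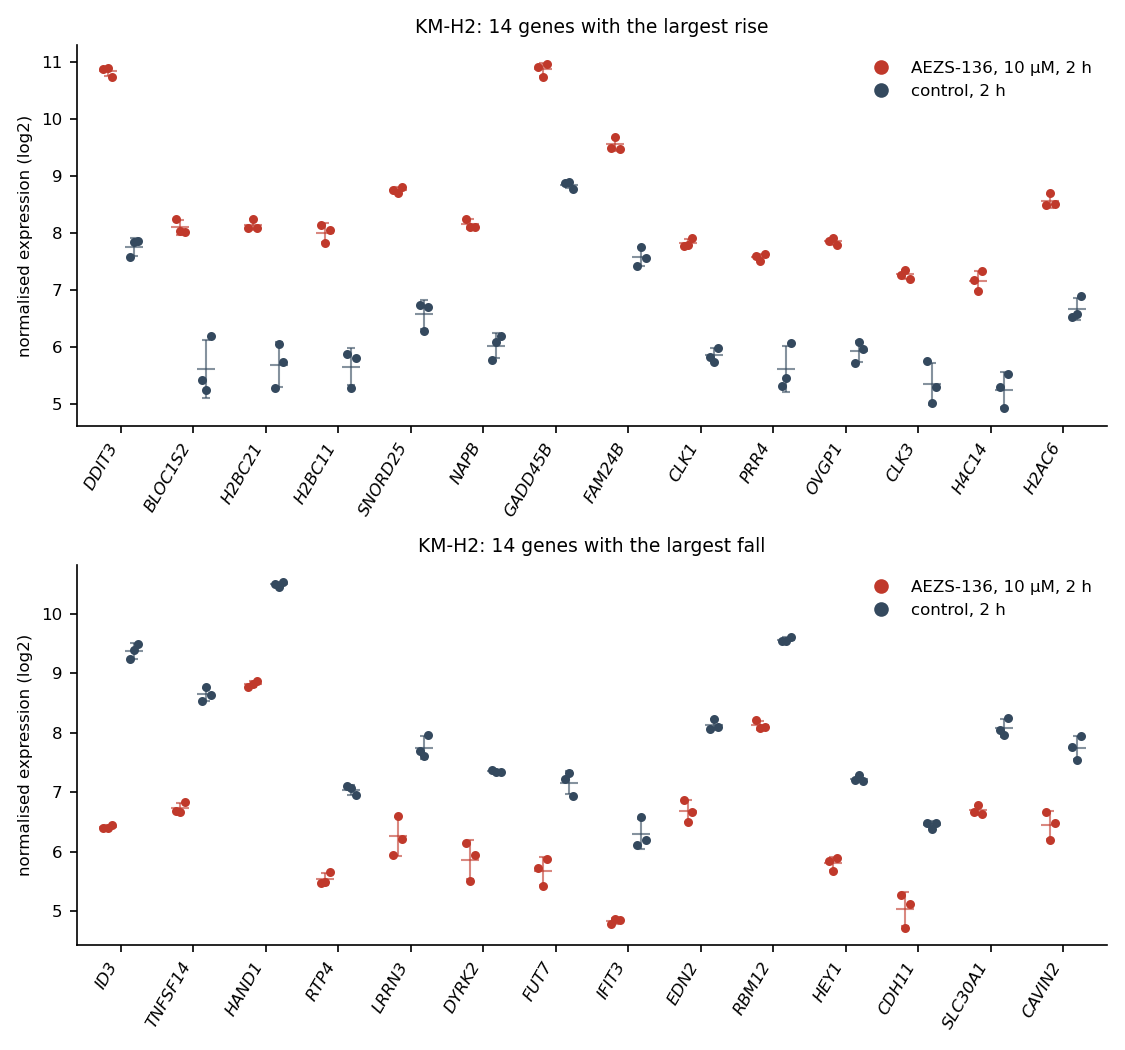
Normalised expression (log2) of the 14 genes with the largest rise (top) and the 14 with the largest fall (bottom) in KM-H2 cells. Points are single arrays of AEZS-136 cells (red, left of each pair) and control cells (dark, right), lines are means ± SD (n = 3 each), and in every gene shown the groups do not overlap. DDIT3 lies near 10.8 in AEZS-136 cells and near 7.8 in control cells.

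The stress transcription factors of the ATF4 pathway were among the clearest rises. DDIT3, which encodes the pro-apoptotic factor CHOP, had 10.87, 10.88 and 10.74 in AEZS-136 cells, against 7.57, 7.84 and 7.85 in control cells. This was the largest rise of any named gene, 3.08 ± 0.09 on the log2 scale (SE, adjusted p = 1.07e-14), or 8.43-fold. ATF4 itself had 13.27, 13.37 and 13.24 in AEZS-136 cells, against 11.53, 11.64 and 11.71 in control cells, a rise of 1.67 ± 0.08. CEBPB, a C/EBP factor that pairs with ATF4, had 10.12, 9.98 and 9.89 in AEZS-136 cells, against 8.79, 8.91 and 8.78 in control cells. The stress-induced repressor ATF3 had 11.33, 11.05 and 11.19 in AEZS-136 cells, against 9.95, 10.09 and 10.05 in control cells. For these 4 genes the arrays of a group lay within 0.3 of each other, and each AEZS-136 array was more than 0.9 above every control array. CEBPG rose by 0.64 and NFE2L1, a factor for proteasome genes, by 0.45. Of 13 measured stress factors 6 rose and 0 fell, and the list's median change was 0.34, beside a median of -0.02 over all genes. The other 7 factors, among them ATF5, TRIB3 and NUPR1, were not called.

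Genes that act on eIF2α also included rises. PPP1R15A (GADD34), the inducible subunit that brings a phosphatase to eIF2α, had 10.79, 10.83 and 10.67 in AEZS-136 cells, against 9.16, 9.08 and 9.03 in control cells, a rise of 1.68 ± 0.09. Its constitutive relative PPP1R15B had 6.90, 7.11 and 6.72 in AEZS-136 cells, against 5.97, 6.22 and 6.10 in control cells. EIF2AK3 (PERK), the eIF2α kinase of the endoplasmic reticulum, rose by 0.49 and EIF2S1, eIF2α itself, by 0.43. Of 9 measured genes of this list 4 rose and 0 fell, with a median of 0.06. Only PPP1R15A and PPP1R15B passed without each array in turn: 2 genes were called without control array 3 or without any 1 of the AEZS-136 arrays, 2 with median scaling and 1 with the authors' normalized values.

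Among amino acid genes, 7 of 19 measured rose and 0 fell, with a median change of 0.25. With median scaling 3 were called and with the authors' normalized values 7. CTH, the last enzyme of the transsulfuration route to cysteine, had 6.08, 6.46 and 6.29 in AEZS-136 cells and was not detected on any control array, so it was at least 2.45-fold higher in AEZS-136 cells (adjusted p = 8.21e-11). The amino acid transporter SLC38A2 rose by 0.92, the shared heavy chain of several transporters SLC3A2 by 0.62, the arginine and lysine carrier SLC7A1 by 0.53, and the leucine carrier SLC7A5 by 0.42. ASNS, asparagine synthetase, had 11.33, 11.28 and 11.34 in AEZS-136 cells, against 10.87, 10.78 and 10.61 in control cells, a rise of 0.56 ± 0.08. MTHFD2, a mitochondrial folate enzyme, rose by 0.53. Of 18 measured cytosolic aminoacyl-tRNA synthetases 2 rose, GARS1 by 0.56 and YARS1 by 0.48, and 0 fell, which is near the background share.

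The composite element bound by ATF4 or CHOP with a C/EBP partner was searched as TGATGNAA on both strands of RefSeq promoters (GRCh38.p14, 250 bases before to 50 after each gene's start). It was found in the promoters of 5 of 20 genes that rose among the stress, eIF2α, amino acid and mTOR brake lists, in 1 of 19 that were not called and in 0 of 1 that fell. It was present in 3.67% of all 27305 promoters. The matches were in ASNS, ATF3, PPP1R15B, SLC3A2, SLC7A1 and, among genes not called, TSC2. Of the genes that rose, ASNS, ATF3 and PPP1R15B hold it upstream of the start, and 2 of these promoters are shown as examples, ASNS (chr7:97872359-97872658, minus strand) and PPP1R15B (chr1:204411768-204412067, minus strand), with the element in capitals. In ASNS the same letters run on into a match to the heat shock motif described further on.
ASNS: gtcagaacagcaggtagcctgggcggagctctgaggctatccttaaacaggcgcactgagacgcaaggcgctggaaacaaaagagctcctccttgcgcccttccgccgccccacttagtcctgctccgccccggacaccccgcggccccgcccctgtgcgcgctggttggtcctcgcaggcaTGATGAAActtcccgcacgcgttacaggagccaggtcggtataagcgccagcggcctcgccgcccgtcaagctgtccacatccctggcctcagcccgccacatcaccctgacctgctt
PPP1R15B: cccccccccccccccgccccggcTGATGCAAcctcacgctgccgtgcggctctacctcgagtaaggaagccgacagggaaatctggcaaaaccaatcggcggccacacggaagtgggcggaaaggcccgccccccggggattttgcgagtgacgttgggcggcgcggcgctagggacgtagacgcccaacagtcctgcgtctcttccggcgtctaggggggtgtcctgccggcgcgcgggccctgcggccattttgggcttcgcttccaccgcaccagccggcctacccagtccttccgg
A match to these letters is a description of the sequence and was not tested for binding.

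The brakes on mTOR signalling did not move together. DDIT4 (REDD1), which restrains mTORC1 through the TSC complex, had 11.70, 11.54 and 11.52 in AEZS-136 cells, against 10.21, 10.27 and 10.33 in control cells, a rise of 1.31 ± 0.12. SESN2, the stress-induced sestrin, had 5.91, 5.99 and 5.75 in AEZS-136 cells, against 4.78, 4.87 and 5.51 in control cells. The groups were separate, but only 1 control array detected SESN2. TSC1 rose by 0.53, and the p53-responsive sestrin SESN1 fell by 0.41. In all, 3 of 11 measured genes rose and 1 fell, and the list's median was -0.15. SESN2 passed only with 2 of the 6 single arrays left out and SESN1 likewise with 2, and with the authors' normalized values 1 gene of the list rose.

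snoRNA host genes, noncoding transcripts whose introns carry small nucleolar RNAs and whose spliced remainder is a textbook substrate of nonsense-mediated decay, gave the highest median of the lists described here. Of 18 measured, 10 rose and 1 fell, and the median change was 1.05. SNHG15 had 12.02, 11.96 and 11.92 in AEZS-136 cells, against 10.13, 10.21 and 10.12 in control cells, a rise of 1.81 ± 0.07. SNHG1 had 12.87, 12.86 and 12.82 in AEZS-136 cells, against 11.17, 11.22 and 11.25 in control cells. SNHG7 rose by 1.73, SNHG17 by 1.71, EPB41L4A-AS1 by 1.62, SNHG11 by 1.34, SNHG12 by 1.29, SNHG32 by 1.21, ZFAS1 by 1.13 and SNHG8 by 0.96. SNHG9 went the other way, with 9.04, 8.96 and 9.07 in AEZS-136 cells, against 9.73, 9.92 and 9.80 in control cells. GAS5 was not called, at 0.17. The 10 rises and the 1 fall were also counted with median scaling, without background correction and with the authors' normalized values.

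The small nucleolar RNAs carried in these hosts did not share the rise. By the RefSeq annotation, 22 measured snoRNA genes lie inside 9 of the host genes that rose. Of these 1 rose and 2 fell, their median change was -0.03, and the median of the 9 hosts was 1.62. The riser was SNORD25, which lies within SNHG1 and had 8.76, 8.69 and 8.80 in AEZS-136 cells, against 6.73, 6.28 and 6.70 in control cells. Other snoRNAs inside SNHG1 were not called, namely SNORD22 at 0.27, SNORD27 at -0.18, SNORD30 at 0.11 and SNORD31 at 0.25. The fallers were SNORA16A of SNHG12 at -0.54 and SNORA9 of SNHG15 at -0.57. Over all 182 measured snoRNA genes 4 rose and 16 fell, which together is near the background share, and the median was -0.06. The counts moved with the processing, to 3 rises and 0 falls with median scaling (median 0.04), 1 rise and 2 falls without background correction, and 1 rise and 1 fall with the authors' normalized values. The labelling method primes from poly(A) tails, which mature snoRNAs lack, and whether the probes read the snoRNA or its host transcript was not tested.

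Factors of nonsense-mediated decay rose as well. SMG1, the kinase that phosphorylates UPF1, had 9.77, 9.69 and 9.61 in AEZS-136 cells, against 8.89, 9.15 and 8.69 in control cells. SMG5 rose by 0.65, UPF1 and UPF2 by 0.48 each, and SMG9 by 0.45. This made 5 of 7 measured factors, 0 fell, and the median change was 0.48. With median scaling, or without AEZS-136 array 1, 3 of the 7 were called.

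The CLK kinases, which phosphorylate SR splicing factors and whose own transcripts are held in the nucleus with retained introns until the kinases are inhibited or the cell is stressed, included 3 rises. CLK4 had 8.93, 8.95 and 8.73 in AEZS-136 cells, against 7.37, 7.07 and 7.30 in control cells, a rise of 1.62 ± 0.12. CLK1 and CLK3 are each read by a pair of probes that differ in size. The brighter CLK1 probe had 9.84, 9.86 and 9.84 in AEZS-136 cells, against 8.81, 8.89 and 8.69 in control cells. The dimmer one rose by 1.97. For CLK3 the brighter probe rose by 1.15 and the dimmer by 1.92, with 2 of 3 control arrays detecting the dimmer. Among the related DYRK kinases DYRK3 fell by 0.59 and DYRK2 fell by 0.54 on its brightest probe. The other DYRK2 probes were at -1.49, -0.42 and 0.57, the last not called. Of 13 measured SR splicing factors 1 rose, SRSF10 by 0.53, and 1 fell, SRSF5 by 0.56.

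**Figure D2:**
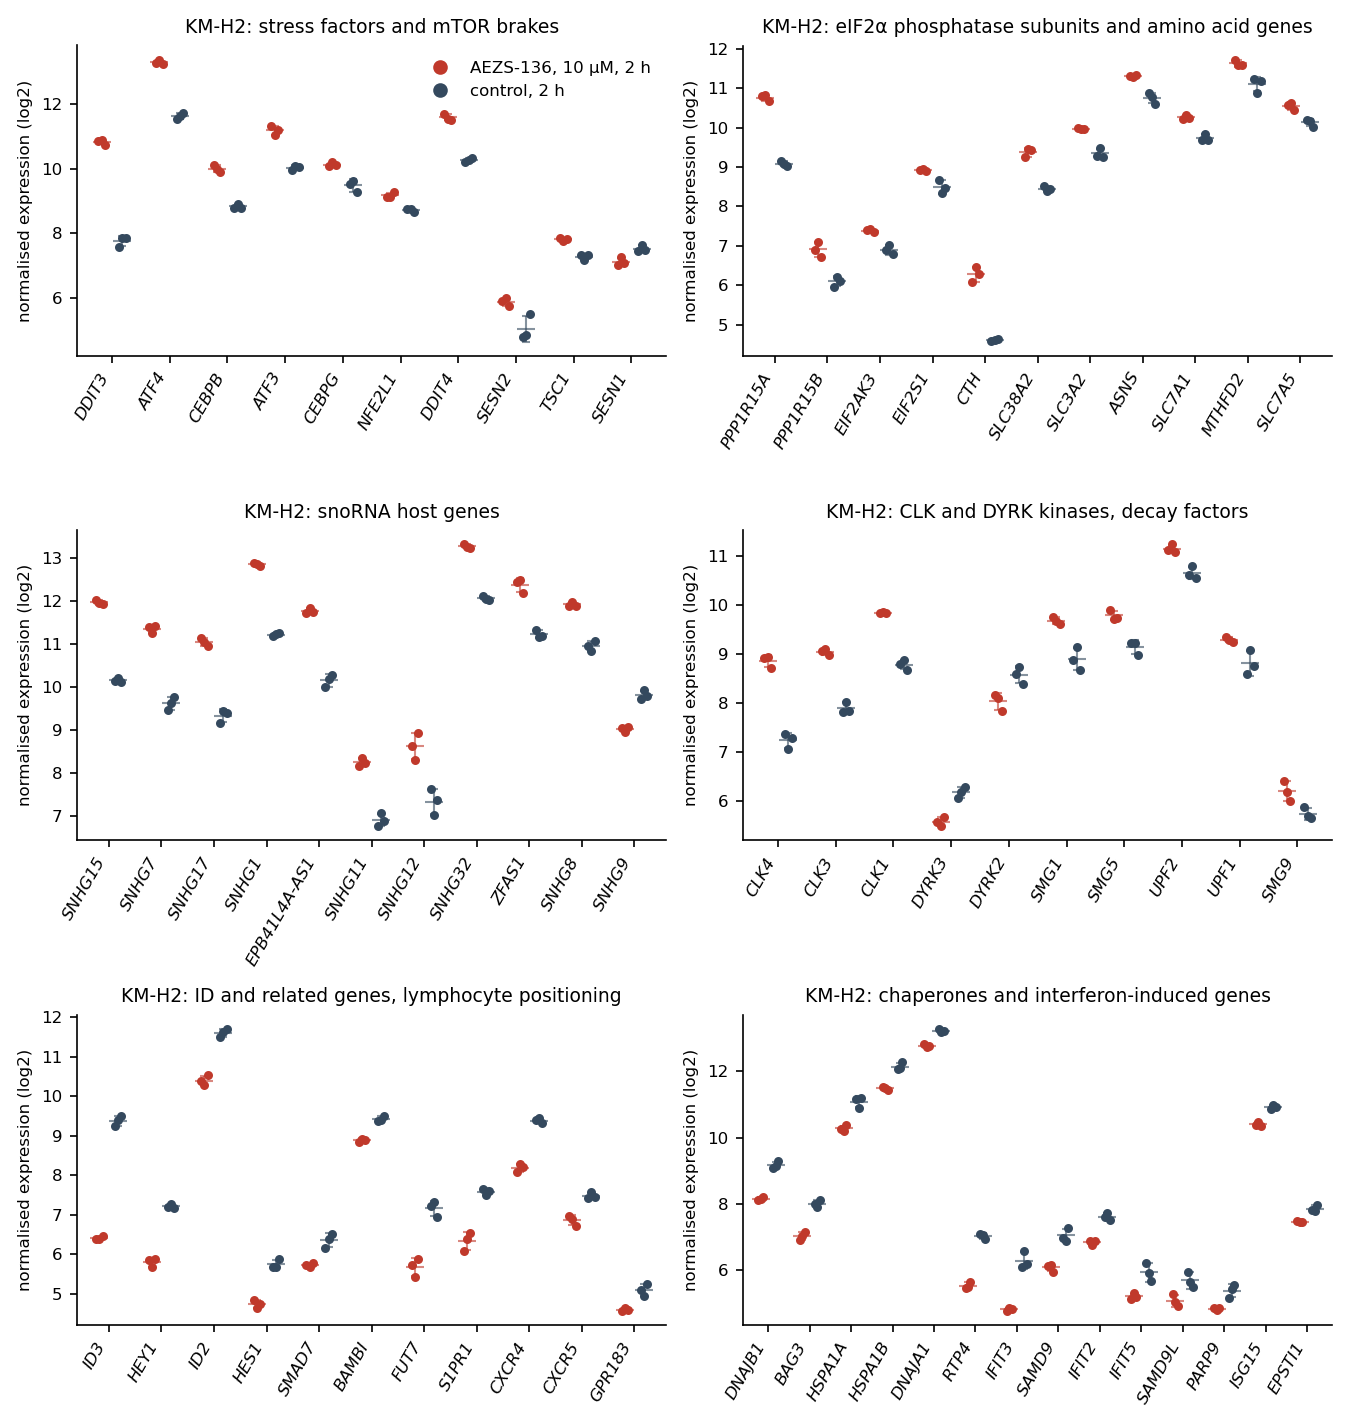
Normalised expression (log2) of the called members of the main gene lists in KM-H2 cells, 1 probe per gene. Points are single arrays of AEZS-136 cells (red, left of each pair) and control cells (dark, right), with means ± SD (n = 3 each). The stress factors, CLK kinases and decay factors shown lie higher in AEZS-136 cells, as does SNHG15, with 12.02, 11.96 and 11.92 in AEZS-136 cells against 10.13, 10.21 and 10.12 in control cells, and the ID genes, chaperones and interferon-induced genes shown lie lower.

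Histone genes formed the other large group of rises. The replication-dependent histone genes sit in clusters and are normally transcribed in S phase as mRNAs that end in a stem-loop and not a poly(A) tail. H2BC21 had 8.08, 8.25 and 8.09 in AEZS-136 cells, against 5.27, 6.05 and 5.74 in control cells, a rise of 2.45 ± 0.17, or 5.48-fold. H2BC11 had 8.14, 7.81 and 8.04 in AEZS-136 cells, against 5.87, 5.28 and 5.80 in control cells. H2AC6 had 8.48, 8.69 and 8.50 in AEZS-136 cells, against 6.52, 6.58 and 6.89 in control cells. Control arrays spread more than AEZS-136 arrays for the H2B genes, and the groups stayed well apart. H4C14 rose by 1.91, H2BC5 by 1.83 and H2AC18 by 1.44. Of 56 measured clustered genes 22 rose and 2 fell, and the median was 0.36, beside medians of 0.49, 0.62 and 0.55 in L-428, L-540 and SUP-HD1. The fallers were H1-1 at -0.66, and H4C9, detected on no AEZS-136 array and at least 1.23-fold lower (adjusted p = 0.0197). H1-1 was not called without control array 1 (-0.35) or without AEZS-136 array 1 (-0.65), 2 (-0.64) or 3 (-0.69). H4C9 was not called without control array 2 (-0.51), control array 3 (-0.52) or AEZS-136 array 3 (-0.47). With the authors' normalized values 13 rose and 1 fell, and with median scaling 19 rose and 0 fell. How transcripts without a poly(A) tail entered the labelling was not tested, and near-identical copies such as H2AC18 and H2AC19 may share signal.

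Outside the clusters 5 of 10 measured histone genes rose and 0 fell, with a median of 0.32. H3-3B, one of the genes of the replacement histone H3.3, had 11.04, 11.07 and 10.86 in AEZS-136 cells, against 10.19, 10.19 and 9.99 in control cells. H1-10 rose by 0.68, H3-5 by 0.53, H2AJ by 0.45 and H2AX by 0.45. With median scaling 2 were called, and without AEZS-136 array 3 there were 3. G1/S and G2/M genes gave no such change. Of 25 measured G1/S genes 1 rose and 1 fell (CCNE1, cyclin E1, at -0.51 and RRM2, a ribonucleotide reductase subunit, at 0.46), and of 25 G2/M genes 1 was called, CENPF at 0.45.

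The octamer ATTTGCAT, a classic element of H2B promoters, was found in the promoters of 10 of 22 clustered histone genes that rose, 12 of 28 that were not called and 0 of 2 that fell. It was present in 1.8% of all 27305 promoters, and both genes that rose and genes not called held it more often than that. The promoters of the H2B genes with the largest rises are shown with the octamer in capitals, H2BC21 (chr1:149886633-149886932, minus strand) and H2BC11 (chr6:27132746-27133045, minus strand).
H2BC21: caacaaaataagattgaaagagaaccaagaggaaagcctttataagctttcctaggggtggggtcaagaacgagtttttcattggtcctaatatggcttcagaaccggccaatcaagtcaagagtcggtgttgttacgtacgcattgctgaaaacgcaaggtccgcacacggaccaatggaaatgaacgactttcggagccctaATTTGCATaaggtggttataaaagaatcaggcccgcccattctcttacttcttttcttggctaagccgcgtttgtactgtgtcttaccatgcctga
H2BC11: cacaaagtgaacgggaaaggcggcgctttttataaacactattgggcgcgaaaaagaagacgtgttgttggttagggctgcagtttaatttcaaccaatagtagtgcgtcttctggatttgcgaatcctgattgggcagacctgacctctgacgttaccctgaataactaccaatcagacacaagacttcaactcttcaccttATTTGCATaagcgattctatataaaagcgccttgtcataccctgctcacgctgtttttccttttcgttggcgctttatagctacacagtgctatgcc
The octamer starts at -46 in H2BC21 and at -47 in H2BC11, counted from the start of the gene.

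The largest fall was in ID3, an inhibitor of DNA binding that ties up helix-loop-helix factors and is a direct target of BMP and SMAD signals. ID3 had 6.39, 6.40 and 6.46 in AEZS-136 cells, against 9.24, 9.40 and 9.49 in control cells, a change of -2.96 ± 0.14 (adjusted p = 2.16e-11), or 7.8-fold lower. Its relative ID2 had 10.38, 10.29 and 10.53 in AEZS-136 cells, against 11.51, 11.62 and 11.70 in control cells. HEY1, a repressor downstream of Notch and BMP signals, had 5.85, 5.67 and 5.88 in AEZS-136 cells, against 7.21, 7.29 and 7.18 in control cells. A dimmer HEY1 probe was not called, at -0.30. HES1, a Notch target, was detected on 0 of 3 AEZS-136 arrays and on all control arrays and was at least 1.78-fold lower (adjusted p = 0.000123). The inhibitory SMAD7 fell by 0.62 and the BMP pseudoreceptor BAMBI by 0.54. In all 6 of 9 measured genes of this list fell and 0 rose, with a median of -0.62. With median scaling, and with the authors' normalized values, 4 were called, all lower.

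Genes that place lymphocytes in tissue also fell. FUT7, the fucosyltransferase that builds selectin ligands, had 5.73, 5.41 and 5.88 in AEZS-136 cells, against 7.22, 7.32 and 6.94 in control cells, a change of -1.49 ± 0.16. S1PR1, the receptor that draws lymphocytes towards blood and lymph, had 6.09, 6.38 and 6.54 in AEZS-136 cells, against 7.66, 7.49 and 7.61 in control cells. CXCR4, the receptor for CXCL12, had 8.09, 8.29 and 8.20 in AEZS-136 cells, against 9.39, 9.44 and 9.33 in control cells. For all 3 genes the lowest control array was more than 0.9 above the highest AEZS-136 array. CXCR5, the follicle-homing receptor, fell by 0.62, and GPR183 was detected on 0 of 3 AEZS-136 arrays and 2 of 3 control arrays and was at least 1.14-fold lower (adjusted p = 0.00205). This was 5 of 12 measured genes down and 0 up, with a median of -0.39. With median scaling, and with the authors' normalized values, 3 fell.

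Several interferon-induced genes fell. RTP4, a chaperone of membrane receptors, had 5.46, 5.49 and 5.66 in AEZS-136 cells, against 7.10, 7.08 and 6.95 in control cells, a change of -1.50 ± 0.11. IFIT3, an antiviral RNA-binding adaptor, was detected on 0 of 3 AEZS-136 arrays and had 6.11, 6.58 and 6.19 in control cells, so it was at least 2.60-fold lower in AEZS-136 cells (adjusted p = 3.81e-07). Other IFIT3 probes were at -1.26 and, detected on 1 control array, at -0.26. SAMD9 fell by 0.96, IFIT2 by 0.78, IFIT5 by 0.73 and ISG15 by 0.53. Of 42 measured interferon-induced genes 9 fell and 0 rose, and the median was -0.19. Under median scaling, and with the authors' normalized values, 5 fell.

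The core of the interferon response element was searched on both strands as 2 copies of GAAA separated by any 2 letters. It was found in 6 of 8 interferon-induced genes that fell and had a promoter in the table, and in 17 of 25 that were not called, against 3.65% of all promoters. Both genes that fell and genes not called held it more often than promoters at large. The promoters of the 2 genes with the largest falls are shown, RTP4 (chr3:187368135-187368434, plus strand) and IFIT3 (chr10:89327747-89328046, plus strand), with the element in capitals. In IFIT3 it reads on the other strand, as copies of TTTC.
RTP4: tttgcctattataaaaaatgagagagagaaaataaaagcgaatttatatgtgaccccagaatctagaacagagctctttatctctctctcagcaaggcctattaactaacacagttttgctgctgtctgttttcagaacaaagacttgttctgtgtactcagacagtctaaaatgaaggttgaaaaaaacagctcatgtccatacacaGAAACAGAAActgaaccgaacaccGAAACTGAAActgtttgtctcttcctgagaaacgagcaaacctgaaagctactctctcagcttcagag
IFIT3: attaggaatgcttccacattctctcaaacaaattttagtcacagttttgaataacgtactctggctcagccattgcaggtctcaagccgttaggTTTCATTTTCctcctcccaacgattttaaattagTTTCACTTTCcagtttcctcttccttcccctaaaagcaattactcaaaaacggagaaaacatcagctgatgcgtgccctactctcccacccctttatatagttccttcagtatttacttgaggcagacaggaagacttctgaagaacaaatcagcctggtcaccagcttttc
Each holds the element at 2 places.

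TNF family genes had 4 falls and 0 rises among 22 measured, with a median of -0.07. With median scaling 2 fell. TNFSF14 (LIGHT), a ligand for HVEM and the lymphotoxin β receptor, is read by 3 probes. The probe with the largest change had 6.68, 6.67 and 6.83 in AEZS-136 cells, against 8.54, 8.76 and 8.63 in control cells, whereas the brightest probe fell by 0.55. TNFSF10 (TRAIL) fell by 0.92, TNFRSF4 (OX40) by 0.87 and TNFSF9 (4-1BB ligand) by 0.70. Among 17 chemokine and interleukin genes IL6 fell by 0.81 and IL15 rose by 0.61. Of the Hodgkin markers BATF3 fell by 0.41, of the T cell markers CD3D and CD3G fell by 0.54 each, and of the myeloid markers CD14 fell, with 8.39, 7.95 and 8.43 in AEZS-136 cells, against 9.26, 9.47 and 9.36 in control cells. SPIB, a B lineage factor, fell by 0.81, and COL1A1 rose by 0.51. VPREB3, a pre-B lymphocyte gene, was undetected in control cells and at least 1.42-fold higher in AEZS-136 cells (adjusted p = 0.00173). In all, 0 rose and 2 fell of 6 T cell markers, and 0 rose and 1 fell of 7 myeloid markers, whose median was 0.12. Among those not called, LCK was at 0.53 and undetected in control cells, CSF1R and ITGAM were at 0.24 each and CD68 was at 0.12. The mean level over the measured markers ran from 9.83 to 9.87 in AEZS-136 cells and from 9.93 to 10.05 in control cells for the Hodgkin list, and from 6.35 to 6.39 in AEZS-136 cells and from 6.37 to 6.43 in control cells for the B cell list. It ran from 5.67 to 5.73 in AEZS-136 cells and from 5.80 to 5.89 in control cells for the T cell list, and from 7.12 to 7.22 in AEZS-136 cells and from 7.17 to 7.32 in control cells for the myeloid list. The part of other cells in these results was not tested.

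Several feedback genes of NF-kB and cytokine signals rose. NFKBIA (IκBα), the inhibitor that NF-kB induces to shut itself off, had 14.46, 14.45 and 14.33 in AEZS-136 cells, against 12.65, 12.72 and 12.82 in control cells, a rise of 1.68 ± 0.09. NFKBIZ, a nuclear IκB protein, had 9.33, 9.22 and 9.26 in AEZS-136 cells, against 8.02, 7.98 and 7.86 in control cells. The adhesion molecule ICAM1 rose by 0.93 and the ubiquitin-editing inhibitor TNFAIP3 (A20) by 0.92. BCL3, a further IκB family member, fell by 0.73. Of 18 measured NF-kB genes 4 rose and 1 fell, with a median of 0.12. In the JAK-STAT list PIM1, a STAT-induced kinase, had 9.42, 9.47 and 9.47 in AEZS-136 cells, against 8.40, 8.44 and 8.21 in control cells. PIM3 was undetected in control cells and at least 1.33-fold higher (adjusted p = 0.00478), STAT5B rose by 0.56, and IL4I1, an amino acid oxidase, fell by 0.73. Of 19 measured genes of that list 3 rose and 2 fell, and with the authors' normalized values 1 rose.

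Immediate early genes and readouts of ERK split in direction. EGR1, an early target of ERK through serum response elements, had 5.71, 5.22 and 5.59 in AEZS-136 cells, against 6.75, 7.13 and 6.23 in control cells, a change of -1.20 ± 0.26. DUSP5, a nuclear phosphatase for ERK that ERK itself induces, had 8.17, 8.07 and 8.12 in AEZS-136 cells, against 9.32, 9.36 and 9.34 in control cells. FOSL1, a FOS family factor stabilised by ERK, had 5.08, 5.07 and 5.12 in AEZS-136 cells, against 5.85, 6.45 and 6.03 in control cells. All 3 were lower on every AEZS-136 array, and EGR1 had the widest spread. ETV5, another ERK-responsive factor, rose by 0.50. Of 14 measured ERK output genes 1 rose and 3 fell, with a median of -0.09. Of 24 measured immediate early genes 5 rose (ATF3, ZFP36, KLF6, JUN and NR4A2) and 4 fell (EGR1, FOSL1, KLF10 and BHLHE40). ZFP36, which destabilises cytokine mRNAs, had 9.02, 8.87 and 8.87 in AEZS-136 cells, against 8.02, 7.80 and 7.92 in control cells. IER3, which the study followed up, had 10.31, 10.27 and 10.17 in AEZS-136 cells, against 9.90, 10.00 and 10.01 in control cells. The groups did not overlap, but the difference of 0.28 ± 0.09 lay under the size threshold (adjusted p = 0.05).

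Among cytosolic chaperones 5 genes fell. DNAJB1, an HSP40 cochaperone, had 8.13, 8.14 and 8.22 in AEZS-136 cells, against 9.08, 9.16 and 9.29 in control cells, a change of -1.01 ± 0.08. BAG3, a cochaperone of selective autophagy, had 6.91, 7.04 and 7.15 in AEZS-136 cells, against 8.01, 7.92 and 8.11 in control cells. HSPA1A fell by 0.80 and HSPA1B by 0.66, a pair so alike that their probes may share signal, and DNAJA1 fell by 0.45. Of 19 measured genes of this list 0 rose, with a median of -0.13. The heat shock element was searched as GAANNTTC, which reads the same on both strands. It was found in the promoters of 3 of 5 chaperone genes that fell and 4 of 12 that were not called, against 6.87% of all promoters. The promoter of HSPA1B is shown as an example, HSPA1B (chr6:31827488-31827787, plus strand), with the element in capitals.
HSPA1B: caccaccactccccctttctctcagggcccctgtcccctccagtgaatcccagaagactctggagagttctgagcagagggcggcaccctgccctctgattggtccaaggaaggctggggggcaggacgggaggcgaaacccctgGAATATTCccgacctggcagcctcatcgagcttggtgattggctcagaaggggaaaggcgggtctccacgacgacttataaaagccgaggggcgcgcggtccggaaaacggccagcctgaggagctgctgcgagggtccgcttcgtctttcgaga
In the endoplasmic reticulum the chaperone HSPA5 (BiP) rose by 0.55, and it was the only one of 14 unfolded protein response genes called.

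Growth arrest and survival genes moved one by one. GADD45B, a stress sensor that binds p38 and JNK pathway kinases, had 10.91, 10.74 and 10.95 in AEZS-136 cells, against 8.87, 8.89 and 8.77 in control cells, a rise of 2.02 ± 0.18. CDKN1A, which encodes the cell cycle inhibitor p21, had 8.69, 8.52 and 8.86 in AEZS-136 cells, against 9.49, 9.51 and 9.15 in control cells, a change of -0.70 ± 0.12. Of 14 measured p53 genes 5 fell (GDF15, PHLDA3, CDKN1A, TP53INP1 and SESN1) and PMAIP1 (NOXA), a BH3-only protein, rose by 0.92. Without AEZS-136 array 1 or 3 there were 3 falls, and with median scaling 2. GDF15 was undetected in AEZS-136 cells and at least 1.74-fold lower (adjusted p = 8.93e-05). Of 25 measured FOXO genes KLHL24 rose by 0.98 and CCNG2, an unusual cyclin of quiescent cells, by 0.85, and S1PR1, BCL6, CITED2 and SESN1 fell. The median of this list was 0.08 and turned to -0.19 over probes detected on all arrays. In the MYC network the MYC antagonists MXD1 and MXD4 rose by 1.06 and 0.74, and 0 of 11 fell. BCL2A1, a BCL2 relative, fell by 0.73 and BMF, a BH3-only protein, was undetected in AEZS-136 cells and at least 1.38-fold lower (adjusted p = 0.00896).

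Several gene groups showed little or no change in KM-H2 cells. Of 69 cytosolic ribosomal protein genes 2 rose (RPL37 by 1.60 and RPL28 by 0.90) and 0 fell. None was called among 18 glycolysis and hypoxia genes, 14 RAS, RAF and MAP kinase genes and 9 antigen presentation genes (0 each). Of 21 PI3K, AKT and mTOR components RPS6KB1, the S6 kinase, rose by 0.90 and IRS1, an insulin receptor substrate, fell by 0.72. In the ZNF zinc finger family 23 rose and 25 fell of 345, 13.9% in all, beside a background of 12.9%. Of 20 sterol and fatty acid genes INSIG1, which holds SREBP precursors in the endoplasmic reticulum, had 13.08, 13.00 and 12.94 in AEZS-136 cells, against 11.88, 11.70 and 11.83 in control cells, and SREBF2, an SREBP gene, was called lower at -0.66.

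**Figure D3:**
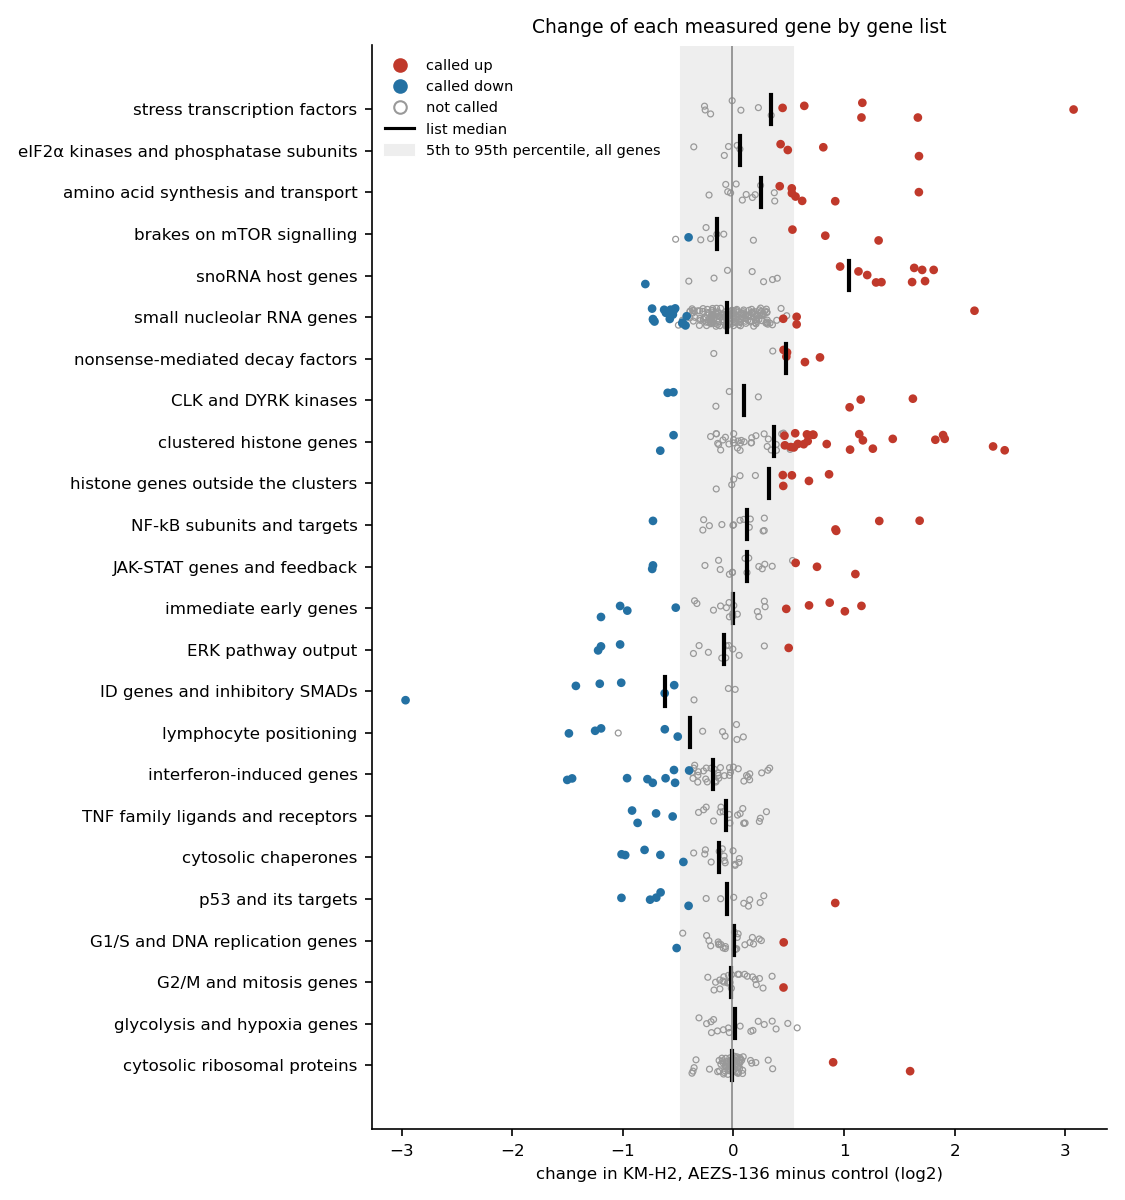
Change in KM-H2 cells (AEZS-136 minus control, log2) of every measured gene in 24 gene lists, 1 probe per gene. Genes undetected in 1 group stand at their fitted value. Filled points passed the test (red higher, blue lower in AEZS-136 cells), open points did not, black bars are list medians and the grey band holds the 5th to 95th percentile of all 13406 genes, -0.47 to 0.54. The median of the snoRNA host genes lies at 1.05 and that of the ID list at -0.62.

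Over all lists 266 genes were called, and 202 of them passed without each KM-H2 array in turn. Of the genes named above, a call ended for want of 1 array in NFE2L1 (0.39), EIF2AK3 (0.43), EIF2S1 (0.35), SLC7A5 (0.36), SESN2 (0.69), SESN1 (-0.35), SMG9 (0.35), UPF1 (0.37), DYRK3 (-0.54), H1-1 (-0.35), H4C9 (-0.47), H2AJ (0.34), H2AX (0.33), RRM2 (0.37), SMAD7 (-0.55), IFIT2 (-0.72), BATF3 (-0.39), COL1A1 (0.40), STAT5B (0.39), ETV5 (0.44), NR4A2 (0.42), TP53INP1 (-0.53), BCL2A1 (-0.56) and SREBF2 (-0.59). The value in parentheses is the log2 change nearest 0 among the fits that lost the call, and each kept its direction.

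Some of the largest single changes fell outside these lists. BLOC1S2, a subunit of a lysosome-positioning complex, had 8.24, 8.02 and 8.02 in AEZS-136 cells, against 5.41, 5.24 and 6.19 in control cells on 1 probe, while a second, detected on no AEZS-136 array, was not called (-0.52). NAPB, a vesicle fusion cofactor, rose by 2.13, FAM24B by 1.97, PRR4 by 1.96 and OVGP1 by 1.93. A second FAM24B probe rose by 1.43. Among the falls EDN2, the peptide endothelin 2, had 6.88, 6.50 and 6.67 in AEZS-136 cells, against 8.07, 8.24 and 8.10 in control cells. SLC30A1, the zinc exporter of the plasma membrane, had 6.66, 6.78 and 6.64 in AEZS-136 cells, against 8.04, 7.96 and 8.25 in control cells. A second SLC30A1 probe fell by 0.81. RBM12, an RNA-binding protein, fell by 1.44 on its leading probe and by 1.06 and 0.48 on the others. Of 56 measured genes that the study listed at 2 h, 18 rose and 17 fell in KM-H2 cells. That list was chosen by the study on these samples and is not independent evidence of direction.

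The change in KM-H2 cells was set against the mean change of L-428, L-540 and SUP-HD1 in the same model. This difference passed the same thresholds for 826 probes (3.36%), 478 of them higher (1.94%) and 348 lower (1.42%) in KM-H2, and 619 of the 826 were also called in KM-H2 in the same direction. Leaving out AEZS-136 array 1 of KM-H2 left 526, and median scaling left 231. Counted with 1 probe per gene, 542 genes differed (4.04%). By comparison 7.27%, 9.06% and 6.54% of probes were called in L-428, L-540 and SUP-HD1.

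BCOR, a corepressor that works with BCL6 and with Polycomb proteins, rose in KM-H2, and on the probe described first it fell in L-540 and SUP-HD1. In KM-H2 it had 10.62, 10.77 and 10.56 in AEZS-136 cells, against 8.98, 9.13 and 8.97 in control cells, a rise of 1.62. In L-428, L-540 and SUP-HD1 its change was -0.21, -1.15 and -0.61, and the difference was 2.28 ± 0.11 (SE, adjusted p = 1.32e-10). A second BCOR probe rose by 1.70 in KM-H2 and was not called in L-540 (-0.21, adjusted p = 0.474) or SUP-HD1 (-0.19, adjusted p = 0.548). FAM50B, an imprinted gene, rose by 1.66 in KM-H2 and fell by 1.26 in L-540, and the difference was 2.11. DKK4, a secreted Wnt antagonist, had 7.53, 7.29 and 7.45 in AEZS-136 cells, against 5.21, 5.61 and 5.78 in control cells of KM-H2, and it changed by -0.12, 0.05 and -0.07 in the other lines. C1QTNF9B was undetected in KM-H2 control cells and at least 2.62-fold higher (adjusted p = 4.16e-10), with a difference of 1.86. A second C1QTNF9B probe, detected on no KM-H2 array, was not called (-0.17), and its difference did not pass (0.095, adjusted p = 0.792). NBEAP1, THRSP, a regulator of lipid synthesis, and APOLD1 rose by 1.61, 1.52 and 1.44 in KM-H2. APOLD1 also rose in L-428 (0.71, adjusted p = 0.0194). Its rise in KM-H2 did not pass with the methods' t-test (adjusted p = 0.0509).

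ID3 had the largest negative difference. Its change of -2.96 in KM-H2 stood beside -0.44, -0.13 and 0.19 in L-428, L-540 and SUP-HD1, and the difference was -2.84 ± 0.16 (adjusted p = 1.06e-09). HAND1, a helix-loop-helix factor of heart and trophoblast development, had 8.77, 8.82 and 8.86 in AEZS-136 cells, against 10.51, 10.46 and 10.53 in control cells of KM-H2, and changed by 0.03, -0.13 and 0.11 elsewhere. FUT7 differed by -1.33, CAVIN2, a coat protein of caveolae, by -1.33, CDH11, a mesenchymal cadherin, by -1.25 and LRRN3 by -1.21. GATA3, a T lineage transcription factor, fell in KM-H2, with values between 6.70 and 7.06 in AEZS-136 cells, against 7.55 to 7.75 in control cells, and rose by 0.46 in L-428 and 0.67 in SUP-HD1. The fall of GATA3 in KM-H2 did not pass with median scaling (-0.58, adjusted p = 0.0875) or with the methods' t-test (adjusted p = 0.0602). GIMAP4, a lymphocyte GTPase, was at -0.99 in KM-H2 with a difference of -1.19.

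Among list genes chosen for this comparison, the difference from the other lines also passed for ATF4 (0.79), NFKBIA (1.22), ZFP36 (1.35), INSIG1 (1.10), PIM1 (0.86) and SNHG1 (0.45), all higher in KM-H2. It passed in the other direction for ID2 (-1.04), DUSP5 (-1.01), EGR1 (-1.09), S1PR1 (-1.13), CXCR4 (-0.73) and BCL6 (-1.17). PPP1R15A, SMAD7 and HES1 did not pass this test. ATF4 and SNHG1 also rose, and CXCR4 also fell, in every other line. NFKBIA also rose in L-428 (1.15) and PIM1 in SUP-HD1 (0.81). For IER3 the difference was 0.39 (adjusted p = 0.0517). DDIT3 rose in all 4 lines, and its change was 3.08 in KM-H2 and 2.01, 3.21 and 1.72 in L-428, L-540 and SUP-HD1.

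**Figure D4:**
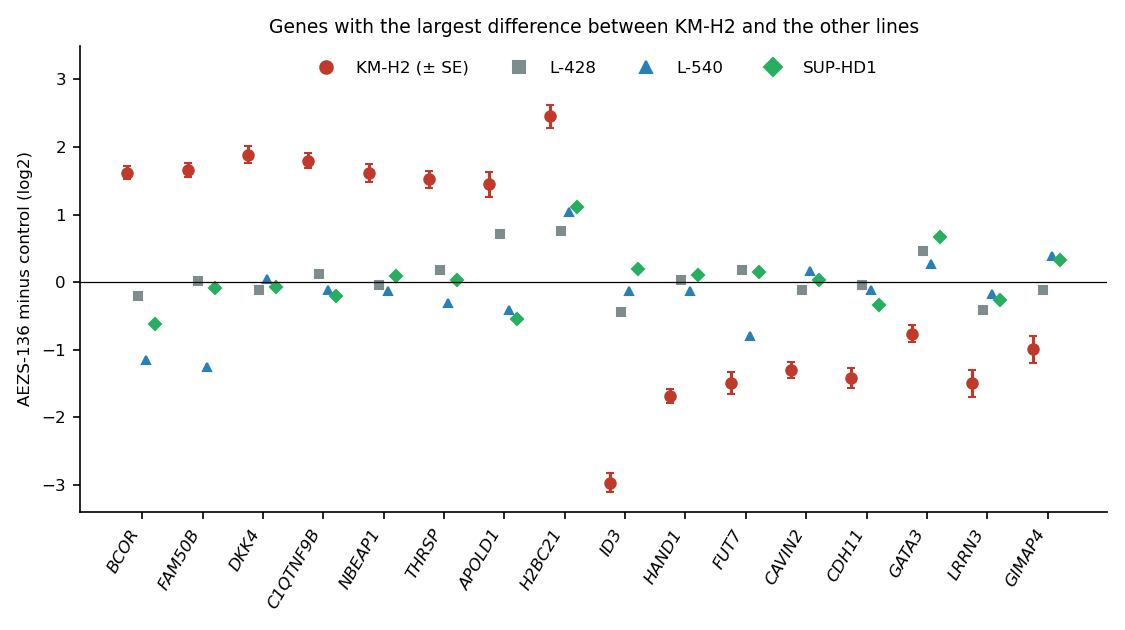
Change (AEZS-136 minus control, log2) of the 16 genes that differed most between KM-H2 and the mean of the other lines, among those called in KM-H2 in the same direction. Red points are KM-H2 with the standard error of the model, and grey, blue and green symbols are L-428, L-540 and SUP-HD1. BCOR is at 1.62 in KM-H2 and below 0 in the other 3 lines, and ID3 is at -2.96 in KM-H2 and between -0.44 and 0.19 in the others. C1QTNF9B, undetected in KM-H2 control cells, stands at its fitted value.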

How the data were processed

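RNA from 24 Illumina bead arrays (4 Hodgkin lymphoma lines, 8 groups of 3) was analysed. Per the labels RNA was extracted with Trizol, cleaned on RNeasy columns with DNase, and amplified and biotinylated with an Ambion MessageAmp kit. The authors deposited a table of BeadStudio probe intensities (version not given in the sources used here), with no background subtraction, and beside each intensity a detection value (1 minus the detection p). They also deposited log2 values that the authors had normalized by robust spline in lumi. Of 47323 probes, 3270 consecutive rows were out of register (detection values in the intensity columns) and were left out, leaving 44053. The 24578 probes with a detection p below 0.05 on 3 or more arrays entered the tests, 18321 of them with a gene symbol from the platform annotation, covering 13406 genes.

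Background was corrected with neqc in limma 3.58.1 (R 4.3.3), taking the negative-control parameters from the detection values and adding an offset of 16, followed by quantile normalization and log2. One linear model with 8 group means was fitted to all arrays, with empirical Bayes moderation. The contrasts were the KM-H2 change (AEZS-136 minus control) and that change minus the mean change of the other 3 lines. Errors of changes are standard errors of the model. A probe not detected on any array of a group was given a bound: the mean of the other group against, per array, the higher of its own value and the lowest value of a detected probe.

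Among called probes whose groups did not overlap, the top 14 rises, the top 14 falls and 8 each way in the second contrast were named. IER3 and up to 6 called members of each of 49 gene lists were added. Any member of a list of 14 or fewer genes could also be named. Not every called list member is named, and those left out include SRXN1 (-0.43), FADD (-0.41) and ACACA (0.44). For the leading genes and those of the second contrast, other probes are given where they differ in sign or by over 0.5. This was not done for genes named only through a list. Probes of some list genes differed in call, among them those of 3 stress transcription factors and 3 snoRNA host genes. Lists used the kept probe with the highest mean per gene, so list values of CLK1, CLK3, TNFSF14, DYRK2 and LRRN3 differ from those of their leading probes. XIST and Y-linked genes are not reported. Members and lists were chosen with earlier results of these data known. Alternatives were 11 other settings (normalization, the authors' log2 values, detection filter, arrays in the fit, the methods' t-test, replicate block, export set) and the omission of each of the 24 arrays. The methods were tested on simulated data. Promoter sequences are those of RefSeq (GRCh38.p14). Tables were handled in Python 3.11.15 with pandas 2.3.3 and numpy 2.4.6, and plots drawn with matplotlib 3.10.9.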

Additional observations from a re-analysis of the deposited data

Results flagged for a closer look

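For the 43 genes listed here the change in KM-H2 differed from the mean change of the other lines by a test of that difference, in the model fitted to all arrays (limma, adjusted p under 0.05 and a size over 0.4). They were leading genes that passed and list genes chosen for this test, not every gene of the lists that passed. Of the clustered histone genes, for example, 4 differences passed upwards and 3 downwards, more than are listed. With standard errors, the differences that were positive and largest were 2.28 ± 0.11 for BCOR, 2.11 ± 0.12 for FAM50B, 1.93 ± 0.15 for DKK4, 1.86 ± 0.12 for C1QTNF9B, 1.64 ± 0.16 for NBEAP1, 1.55 ± 0.15 for THRSP and 1.52 ± 0.22 for APOLD1. Those of H2BC21 (1.49), ZFP36 (1.35), CLK3 (1.24), NFKBIA (1.22), GADD45B (1.20), INSIG1 (1.10) and PRR4 (1.01) were smaller. SNORD25 (0.98), FAM24B (0.86), PIM1 (0.86), NAPB (0.85), H2BC11 (0.79), ATF4 (0.79), DDIT3 (0.77) and SNHG1 (0.45) had the smallest of these differences. The change of DDIT3 was 3.08 in KM-H2, below the 3.21 of L-540 and above the 2.01 and 1.72 of L-428 and SUP-HD1.

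The negative differences were led by ID3, at -2.84, and HAND1, at -1.68. FUT7 and CAVIN2 (both -1.33), CDH11 (-1.25), GATA3 (-1.23), LRRN3 (-1.21), GIMAP4 (-1.19), SLC30A1 (-1.18), BCL6 (-1.17) and S1PR1 (-1.13) followed. EGR1 (-1.09), IFIT3 (-1.08), ID2 (-1.04), DUSP5 (-1.01), EDN2 (-0.90), HEY1 (-0.75), TNFSF14 (-0.74), CXCR4 (-0.73), RTP4 (-0.71) and DYRK2 (-0.63) had smaller differences. Several pointed opposite ways in single lines: BCL6 was at -0.80 in KM-H2 and rose by 1.18 in L-428, S1PR1 was at -1.25 in KM-H2 and rose by 0.46 in L-540, and ZFP36 was at 1.01 in KM-H2 and at -0.85 in SUP-HD1. TNFSF14 was at -1.92 in KM-H2 and at -2.03 in L-540. The differences of ATF4, NFKBIA, ZFP36, DUSP5, EGR1, BCL6, CXCR4, S1PR1, ID2, INSIG1, PIM1 and SNHG1 were not followed across other settings or array omissions. Among the other genes listed, the differences of H2BC11 (0.09), NAPB (0.29), RTP4 (-0.24), DYRK2 (-0.17), IFIT3 (-0.30) and HEY1 (-0.37) no longer passed without background correction. The same 6 did not pass with the authors' normalized values (DYRK2 at -0.16, RTP4 at -0.22, IFIT3 at -0.30, HEY1 at -0.35, H2BC11 at 0.04 and NAPB at 0.26). With median scaling 9 did not pass, DYRK2 (-0.46), TNFSF14 (-0.53), HEY1 (-0.56), RTP4 (-0.57), EDN2 (-0.71), LRRN3 (-0.98), DDIT3 (0.69), H2BC11 (0.78) and NAPB (0.85), and with the replicate number as a block HEY1 did not (-0.75, adjusted p = 0.0581). Other probes of a gene could differ. The brightest DYRK2 probe had a difference of 0.01 and its other probes 0.11 and 0.89, none called, the brightest TNFSF14 probe -0.22 (adjusted p = 0.419) and the brighter CLK3 probe 0.50. Second probes gave differences of 0.50 for FAM24B (adjusted p = 0.136), -0.48 for SLC30A1 (adjusted p = 0.283) and 0.095 for C1QTNF9B (adjusted p = 0.792), none called. Without a single KM-H2 array those of H2BC11 (0.61 without control array 2 and 0.72 without AEZS-136 array 1), TNFSF14 (-0.68 without control array 2, -0.72 without AEZS-136 array 1 and -0.71 without AEZS-136 array 2), HEY1 (-0.68 without AEZS-136 array 2) and DYRK2 (-0.45 without AEZS-136 array 2, and likewise without 4 of the other 5) did not pass, nor did that of DYRK2 without AEZS-136 array 1 of SUP-HD1 (-0.61).

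Some of the probes left out because their rows were out of register were also called. From the log2 values that the authors normalized, fitted together with the kept probes, 21 such probes were called in KM-H2 (0.642% of them), 17 higher and 4 lower in AEZS-136 cells. Of the 8 with a gene symbol, SNHG15 rose by 1.66, TRAPPC2L by 0.68, LMBRD2 by 0.62, CREB1 by 0.50, CCNT1 by 0.50, RBM43 by 0.45 and MYO9A by 0.41, and SNAR-A1 fell by 0.53. With the same values fitted to the kept probes alone, 1173 of 24578 were called, a larger share. The kept probes had passed a detection filter, and no such filter was applied to the probes out of register. Their fit was added after the data had been seen.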

How the results depend on the processing

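The 2758 calls in KM-H2 became 1275 without background correction, 1592 with median scaling, 1173 with the authors' normalized values, 1143 with the methods' t-test (2992 before adjustment, with the size threshold) and 130 on the second export set, which holds 1 KM-H2 array per group. Omitting single arrays gave 2340 to 2827. The 826 differences from the other lines became 483 without background correction, 231 with median scaling, 431 with the authors' normalized values, 528 over probes detected on all 24 arrays, 63 on the first export set and 0 on the second, where 2314 probes had an unadjusted p under 0.05. Omitting single arrays gave 526 (without AEZS-136 array 1 of KM-H2) to 893. The causes were not tested, except that the export sets hold fewer arrays and the stricter filter fewer probes.

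With the replicate number as a block there were 2565 calls and 508 differences. Same-numbered KM-H2 arrays correlated in their deviations at 0.035, 0.086 and 0.048, and each correlated best with its own number, but they also share the export set.

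Median changes that turned sign by more than the spread between arrays were those of the small nucleolar RNA genes (-0.06, 0.04 with median scaling), SR splicing factors (-0.05, 0.05 on the second export set) and FOXO genes (0.08), at -0.19 over probes detected on all arrays, -0.05 on the first export set and -0.04 to -0.02 without control array 2, control array 3 or AEZS-136 array 2. Other lists near 0 also changed sign, such as the brakes on mTOR signalling (-0.15, 0.06 on the first export set and 0.02 over probes detected on all arrays) and the immediate early genes (-0.01, 0.07 with median scaling). The KM-H2 changes of 38 genes were followed, those of the leading rises and falls, of the second contrast and IER3, which was not called. When another setting was used 384 values kept their side of the thresholds and 11 did not. When an array was omitted 912 kept it and 0 did not. On the second export set GADD45B (1.85), RTP4 (-1.59), LRRN3, SLC30A1 (-1.18), APOLD1 (1.07), GATA3 (-0.85) and GIMAP4 (-1.15) lost their calls, and on the first GIMAP4 (-0.92). Of the called differences of those 38 genes from the other lines, 191 values kept their call and 68 lost it under other settings. Omitting single arrays ended 12 calls, all in DYRK2, TNFSF14, H2BC11 or HEY1. The list genes named above as not followed are outside these counts. Levels near background limit RTP4, IFIT3, SESN2, HES1 and CTH.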

Other observations

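Some smaller gene groups held single changes. Of 26 measured ribosome biogenesis factors 1 rose and 4 fell, of 12 cysteine and glutathione genes 2 rose and 1 fell, of 14 death receptor and necroptosis genes 1 rose and 2 fell, and of 19 autophagy genes 2 rose and 0 fell. Among the ribosome biogenesis factors GRWD1 fell by 0.90, MYBBP1A by 0.79, RRS1 by 0.67 and PPAN by 0.48, while NLE1 rose by 0.65. With median scaling 2 of these falls were called. Of the autophagy genes ATG5, part of the conjugation machinery for LC3, rose by 0.76 and its partner ATG12 by 0.52. In the cysteine and glutathione list CHAC2, which breaks down glutathione, fell, and GCLC, a subunit of the enzyme that starts glutathione synthesis, was at 0.48 (not called, at 0.33, without control array 2). CYLD, a deubiquitinase that limits NF-kB signals and takes part in necroptosis, rose by 0.90, and the adaptor TICAM1 (TRIF) fell by 0.81.

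Among the genes that the study listed at 2 h, CYP27B1, which activates vitamin D, rose by 1.56 in KM-H2, CENPU, a kinetochore protein, by 1.07 and RCOR3, a corepressor, by 1.04, while EOMES, a T-box factor of cytotoxic lymphocytes, fell by 1.25.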
